A study of Arabidopsis thaliana with 6 samples.

Results

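The transcripts described here are the named nuclear genes with the brightest array signal in wild-type leaves of Arabidopsis thaliana. They were chosen as probe sets with 1 gene in the array annotation and a mean log2 value over the 3 wild-type arrays at or above a set limit, which corresponds to 5793 on the linear intensity scale, without control probe sets, organelle genes, COR15A, COR15B and COR47. The rule gave 39 probe sets for 39 genes, out of 13366 probe sets eligible by annotation and 22746 tested in all. Among the 173 probe sets at this level, another 113 carry no gene in the annotation, 16 are for organelle genes, 4 are for several genes and 1, COR15A, was left out by name. The 39 are therefore the named nuclear part of the bright signal and not a complete list, and genes such as those of the Rubisco small subunit were not analysed here. Probe sets differ in how well their probes bind, so a bright value is not a count of molecules and no order of abundance among the genes is given.

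Leaves of 3-week-old plants were compared between 2 genotypes. The des1-1 plants carry 1 mutant allele from the SALK collection of T-DNA insertions, and the wild type is the accession Col-0, with 3 biological replicates and 3 arrays for each genotype. Both genotypes grew in soil with Hoagland medium, in 16 h of white light at 20 °C and 8 h of dark at 18 °C. DES1 is a homolog of the enzymes that make cysteine, and the comparison asks which leaf transcripts differ when it is disrupted.

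A leaf cell spends much of its messenger RNA on photosynthesis. Nuclear genes supply most antenna proteins, the peripheral photosystem subunits and nearly all enzymes of the Calvin cycle, which fixes carbon dioxide, and these proteins are imported into the chloroplast. Photorespiration, which runs through chloroplast, peroxisome and mitochondrion, recovers carbon from the side reaction of Rubisco with oxygen. Such transcripts respond to light, sugars and time of day, and no source used here gives the hour of harvest.

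None of the brightest named nuclear genes passed the test for a difference between genotypes. By known function 12 of the 39 belong to the thylakoid membrane, 5 to carbon fixation and photorespiration and 4 to other plastid pathways. The others are 2 genes of the cytosol, 6 of the vacuole, cell wall and defence, 3 of stress and calcium, and 7 that are little studied. Of the 39 proteins 19 are known to act in the plastid, since the 2 photorespiratory ones work in the mitochondrion and the peroxisome. In limma, 0 of 39 had an adjusted p under 0.05, while 0.387% of all probe sets passed. An unadjusted p under 0.05 was reached by 3 of the 39 (7.69%), against 15.6% of all probe sets. Among other eligible probe sets it was reached by 25.8% with wild-type means from 12 up to the limit. The share was 23.9% from 11 to under 12 and 6.04% below 6. The wild-type arrays that chose the genes enter every difference, so these counts are a description and support nothing about the genes as a list. The largest difference among the 39 was -0.36 and the median -0.02 on the log2 scale, beside a median of 0.00 over all probe sets.

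All 6 arrays gave nearly the same level for the 39 genes together. The median over the genes was 13.03, 13.01 and 13 on the des1-1 arrays, against 13.07, 13.11 and 13.01 on the wild-type arrays. The values ran from 12.32 to 14.37 on the des1-1 arrays and from 12.38 to 14.36 on the wild-type arrays. Over all probe sets the array medians were 5.78 to 5.81 in des1-1 and 5.80 to 5.81 in the wild type. RMA gives all arrays a common distribution, so close medians over all probe sets follow largely from the processing. Its part in the near-equal levels of the 39 genes was not tested. The 25S ribosomal RNA control read 5.49 to 6.20 on the des1-1 arrays and 5.54 and 5.63 on wild type 1 and 3, but 10.2 on wild type 2. Choosing the genes without wild type 2 gave the same 39. The 6 measured markers of root, seed, flower and pollen lay between 3.99 and 5.73 in des1-1 and between 3.99 and 5.74 in the wild type, near the bottom of the scale. STOMAGEN, a mesophyll signal for stomata, read 7.85, 7.58 and 7.89 in des1-1 and 7.98, 8.15 and 8.00 in the wild type. SWEET11, a sucrose exporter of the leaf, read 11.33, 11.33 and 11.32 in des1-1 and 11.66, 11.50 and 11.60 in the wild type. In both of these leaf blade markers every des1-1 array was lower, beside 8.66% of all probe sets that separated in this direction. Of the 3 loci on the leaf blade list only these 2 were measured. Their differences were -0.27 (adjusted p = 0.251) and -0.26 (adjusted p = 0.162) in limma, and their part in the lower values of other leaf genes was not tested. FMA, a guard cell factor, overlapped between genotypes with a difference of 0.16. The other measured locus of the guard cell list carries the name SEC15A and was not taken as a guard cell marker. It also overlapped, with a difference of -0.17 at a wild-type mean of 5.11. A whole leaf was measured, so a change in the number of cells of a type and a change in RNA per cell cannot be told apart.

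**Figure D1:**
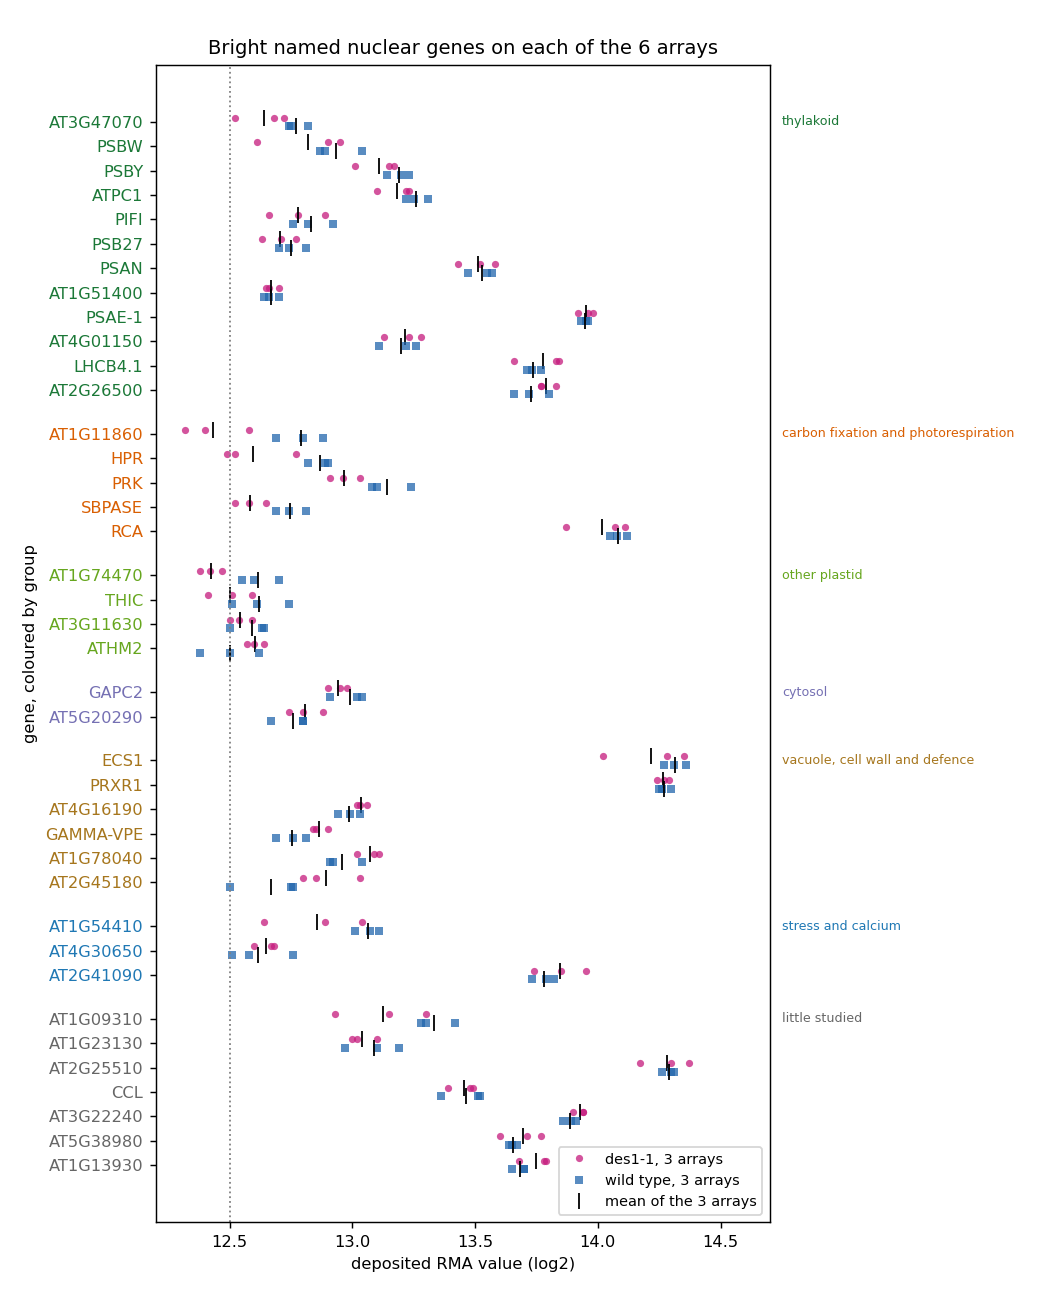
Deposited log2 value of each of the 39 genes (rows, coloured by function) on the 3 des1-1 arrays (circles) and the 3 wild-type arrays (squares), with a bar at each genotype mean and a dotted line at the limit that chose the genes. For most genes the arrays of both genotypes overlap, and in AT1G11860, HPR, PRK, SBPASE, AT1G74470 and AT3G47070 all des1-1 arrays lie to the left.

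The thylakoid genes were the most numerous and differed little. Of these 12 genes 7 were lower and 5 higher in des1-1 with 0 past the test, the differences ran from -0.13 to 0.06, and the 95% interval of 8 of them lay within 0.25 of 0. LHCB4.1 (AT5G01530), which encodes a minor antenna protein of photosystem II, read 13.66, 13.83 and 13.84 in des1-1 and 13.73, 13.71 and 13.77 in the wild type. Its arrays overlapped fully, with a difference of 0.04 ± 0.08 (SE; 95% interval -0.14 to 0.22; adjusted p = 0.87).

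Photosystem II was represented by PSBW and PSBY, small membrane subunits, by PSB27, an assembly factor, and by AT1G51400, the 5 kDa subunit. PSBW (AT2G30570) read 12.90, 12.61 and 12.95 in des1-1 and 12.89, 13.04 and 12.87 in the wild type. The array des1-1 2 lay below the other 5, and the mean difference of -0.11 ± 0.10 (SE; adjusted p = 0.681) was no larger than that spread. PSBY and PSB27 differed by -0.08 (95% interval -0.25 to 0.09) and -0.05 (-0.22 to 0.12). AT1G51400 read 12.66, 12.65 and 12.70 in des1-1 and 12.70, 12.66 and 12.64 in the wild type, a difference of 0.00 (-0.15 to 0.16).

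Photosystem I was represented by PSAE-1 (AT4G28750), a stromal subunit at the ferredoxin docking site, and PSAN (AT5G64040), a subunit on the lumen side. PSAE-1 read 13.96, 13.92 and 13.98 in des1-1 and 13.96, 13.93 and 13.95 in the wild type, a difference of 0.01 (-0.15 to 0.16). PSAN differed by -0.02 (-0.19 to 0.15).

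Between and behind the photosystems, AT2G26500, for the PetM subunit of the cytochrome b6f complex, differed by 0.06 (-0.10 to 0.23), and ATPC1, for the gamma subunit of the plastid ATP synthase, by -0.08 (-0.25 to 0.09). AT4G01150, the CURT1A gene for a protein that bends thylakoid membranes, differed by 0.02 (-0.16 to 0.20), and PIFI, for a protein linked to chlororespiration, by -0.06 (-0.25 to 0.14). AT3G47070, for the soluble thylakoid phosphoprotein TSP9, was the thylakoid gene whose genotypes did not overlap. It read 12.72, 12.52 and 12.68 in des1-1 and 12.75, 12.82 and 12.74 in the wild type, which is a gap of a few hundredths between the nearest arrays. Its difference of -0.13 ± 0.08 (SE; adjusted p = 0.497) did not pass the test.

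The carbon fixation and photorespiration genes included the 2 largest differences below 0, and none of the 5 passed the test. All 5 differences were below 0, with a median of -0.17, and in 4 of the 5 every des1-1 array lay below every wild-type array. Over all probe sets 49% had a difference below 0 and 8.66% separated in this direction. The genes were grouped by function after their values had been seen, so the count describes these 5 genes.

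AT1G11860 encodes the T protein of glycine decarboxylase, the mitochondrial complex that splits glycine in photorespiration. It read 12.40, 12.32 and 12.58 in des1-1 and 12.88, 12.80 and 12.69 in the wild type. All des1-1 arrays were lower, the nearest being des1-1 3 and wild type 3. The difference of -0.36 ± 0.09 (SE; 95% interval -0.57 to -0.15), a ratio of 0.781, had an unadjusted p of 0.00434 and an adjusted p of 0.146 in limma. It was the only one of the 39 whose interval reached beyond 0.5.

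HPR (AT1G68010) encodes the peroxisomal hydroxypyruvate reductase, which acts near the end of the same pathway. It read 12.77, 12.49 and 12.52 in des1-1 and 12.89, 12.90 and 12.82 in the wild type. The array des1-1 1 was close to the wild type, and the other 2 were clearly below it. The difference was -0.28 ± 0.09 (SE; 95% interval -0.49 to -0.07; adjusted p = 0.207). Without des1-1 1 it was -0.37 and still did not pass (adjusted p = 0.0582, in a range of 0.0582 to 0.47 over the alternatives tried).

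Of the Calvin cycle genes, PRK (AT1G32060), for phosphoribulokinase, which makes the acceptor of carbon dioxide, read 13.03, 12.91 and 12.96 in des1-1 and 13.08, 13.24 and 13.10 in the wild type. SBPASE (AT3G55800), for the sedoheptulose-bisphosphatase of the regeneration phase, read 12.65, 12.58 and 12.52 in des1-1 and 12.74, 12.81 and 12.69 in the wild type. In both genes the genotypes were separate by 0.05 or less and wild type 2, the array with the high ribosomal RNA control, was the highest. The differences were -0.17 (-0.35 to 0.00) and -0.16 (-0.33 to 0.01), with adjusted p of 0.335 and 0.339. RCA (AT2G39730), for the activase that clears inhibitors from Rubisco, read 14.07, 13.87 and 14.11 in des1-1 and 14.08, 14.12 and 14.05 in the wild type. Here des1-1 2 stood below the other arrays and the genotypes overlapped (difference -0.07, 95% interval -0.26 to 0.13).

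Further genes, taken from lists for these pathways and for other plant functions, gave no call either. Over the 17 functional lists, of which 13 had a measured gene, 41 of 241 loci were measured and 15 of them were among the 39. The other 26 also cover functions such as the cytoskeleton, translation factors and chaperones. They had 0 higher and 0 lower calls, beside 0.387% of all probe sets, too small a share to expect a call in 26. Of their differences 13 lay below 0 and 13 above 0, from -0.30 to 0.39, the highest in AT1G66100 of the thionin list. In the photorespiration list 2 of the others lay below 0 and 1 above, in light harvesting 1 and 1, and in the Calvin cycle 1 below. In photorespiration, AT1G80380, for glycerate kinase, read 10.38, 10.19 and 10.39 in des1-1 and 10.53, 10.41 and 10.45 in the wild type, a difference of -0.14 (-0.33 to 0.05) without overlap. Of the H protein genes of glycine decarboxylase, AT1G32470 differed by -0.08 (-0.24 to 0.09), also without overlap, and the dimmer AT2G35120 by 0.15 (-0.04 to 0.33). Separation with lower des1-1 arrays was seen for 8.66% of all probe sets, and with higher ones for 9.87%. In other lists, AT1G66100 (0.39), THI2.2 (0.36), AT5G19510 (0.17) and TUA1 (0.14) separated with higher des1-1 arrays, and AT3G09440 (-0.19) with lower ones. In the Calvin cycle, the phosphoglycerate kinase gene AT1G56190 differed by -0.09 (-0.29 to 0.11). Of the close relatives of LHCB4.1, LHCB4.2 differed by 0.07 (-0.13 to 0.27). LHCB4.3 read 11.16, 11.12 and 11.33 in des1-1 and 11.47, 11.58 and 11.46 in the wild type. Its genotypes did not overlap either, with a difference of -0.30 (-0.49 to -0.11; adjusted p = 0.159 in limma). Whether these relatives differ from each other in their response was not tested.

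**Figure D2:**
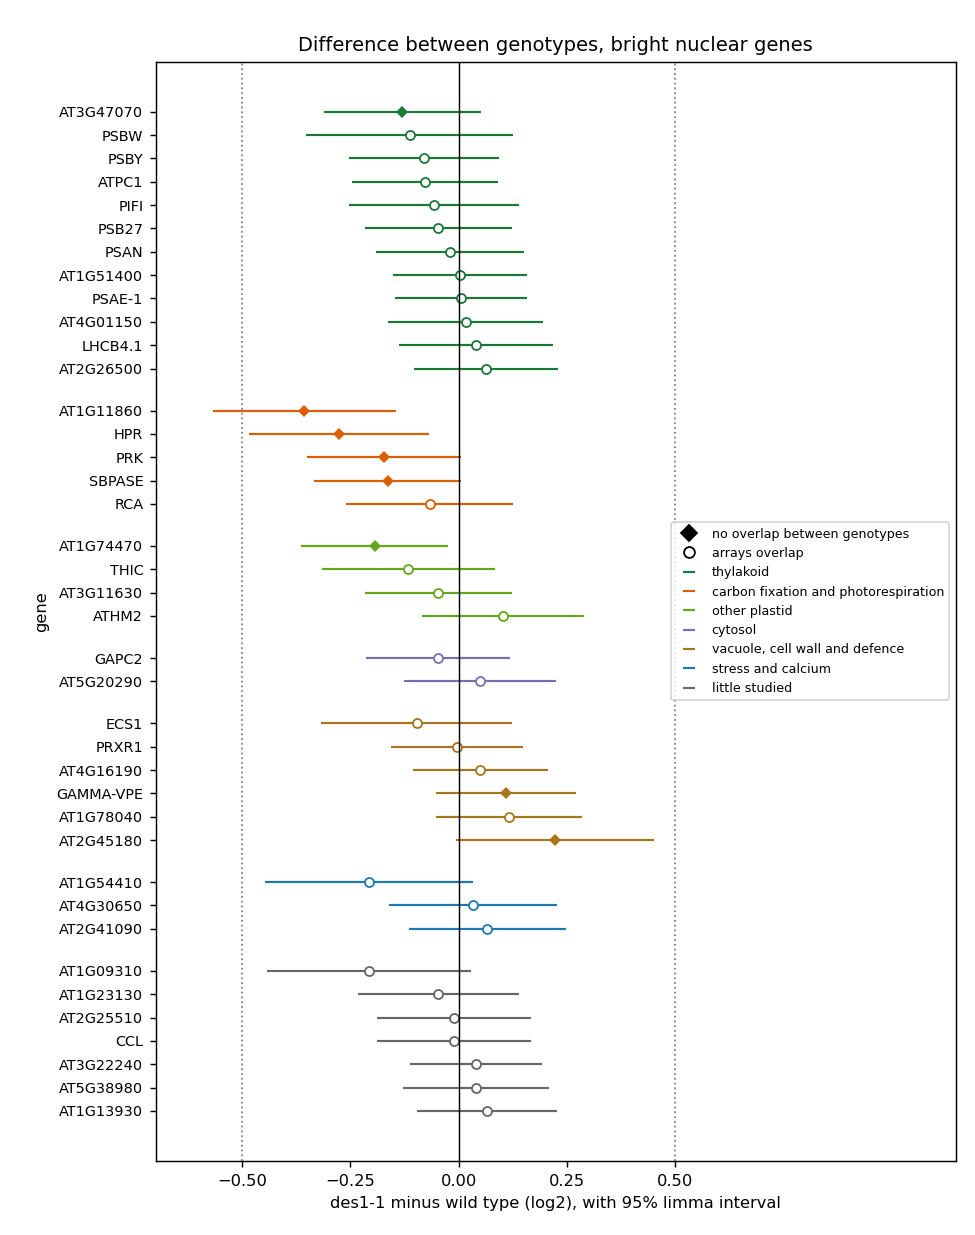
Difference between genotypes (des1-1 minus wild type, log2) of each of the 39 genes with its 95% limma interval, coloured by function; filled diamonds mark genes whose genotypes do not overlap, and dotted lines mark 0.5 in either direction. The 5 carbon fixation and photorespiration genes all lie left of 0, AT1G11860 at -0.36 farthest, and AT2G45180 at 0.22 lies farthest to the right.

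The other 4 plastid genes serve pigment, vitamin and redox metabolism. AT1G74470, for the geranylgeranyl reductase that makes the side chain of chlorophyll and tocopherol, read 12.47, 12.38 and 12.42 in des1-1 and 12.70, 12.55 and 12.60 in the wild type. The genotypes did not overlap, and the difference of -0.19 ± 0.07 (SE; 95% interval -0.36 to -0.02) had an unadjusted p of 0.0303 and an adjusted p of 0.262. THIC, for the enzyme that makes the pyrimidine part of thiamine, read 12.59, 12.51 and 12.41 in des1-1 and 12.51, 12.74 and 12.61 in the wild type (difference -0.12, adjusted p = 0.595). AT3G11630, for the plastid peroxiredoxin 2-Cys PrxA, which removes peroxide, differed by -0.05 (-0.22 to 0.12). ATHM2, for thioredoxin m2, which reduces disulphides of plastid enzymes, differed by 0.10 (-0.08 to 0.29).

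In the 20 genes not assigned to the plastid the differences lay on either side of 0, with 10 higher and 10 lower in des1-1. These include AT1G11860, HPR and the little studied genes, whose site in the cell was not looked up. In the cytosol, GAPC2, for the glycolytic glyceraldehyde-3-phosphate dehydrogenase, read 12.98, 12.90 and 12.95 in des1-1 and 13.04, 13.02 and 12.91 in the wild type (difference -0.05, 95% interval -0.21 to 0.12). AT5G20290, for the ribosomal protein S8, differed by 0.05 (-0.13 to 0.23). Both intervals lay within 0.25 of 0.

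Of the 6 genes of the vacuole, cell wall and defence, 4 were higher and 2 lower, with a median difference of 0.08 and 0 past the test. AT2G45180, for a protein of the lipid-transfer family, read 12.85, 12.80 and 13.03 in des1-1, and 12.75 and 12.76 on wild type 1 and 2, while wild type 3 lay at the limit that chose the genes. Its genotypes were separate by a few hundredths, with des1-1 3 the highest and wild type 3 the lowest array. Its difference of 0.22 ± 0.10 (SE; 95% interval -0.01 to 0.45; adjusted p = 0.334) was the largest above 0 over all 6 arrays. Without wild type 3 it was 0.14, below the 0.16 of ATHM2 in the same fit. GAMMA-VPE, for a vacuolar processing protease, read 12.90, 12.85 and 12.84 in des1-1 and 12.81, 12.76 and 12.69 in the wild type, again without overlap (difference 0.11, adjusted p = 0.522). Separation in this direction was seen for 9.87% of all probe sets and for 2 of the 39.

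AT1G78040, for a protein of the Ole e 1 family, differed by 0.12 (-0.05 to 0.29), and AT4G16190, for a papain-like cysteine protease, by 0.05 (-0.11 to 0.21). PRXR1 (AT4G21960), for a class III peroxidase, read 14.29, 14.27 and 14.24 in des1-1 and 14.30, 14.25 and 14.26 in the wild type. Its difference was 0.00 (-0.16 to 0.15). ECS1 (AT1G31580), for a cell wall protein, read 14.28, 14.02 and 14.35 in des1-1 and 14.31, 14.36 and 14.27 in the wild type. The low array was again des1-1 2, and the difference was -0.10 (-0.32 to 0.12).

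Of the stress and calcium genes, AT1G54410, for the dehydrin HIRD11, a hydrophilic protein that protects other proteins during drying, read 13.04, 12.89 and 12.64 in des1-1 and 13.07, 13.11 and 13.01 in the wild type. The array des1-1 1 lay within the wild-type range and des1-1 3 far below it, and the difference of -0.21 ± 0.11 (SE) had an adjusted p of 0.397. AT4G30650, of a family of small membrane proteins that respond to cold and salt, differed by 0.03 (-0.16 to 0.23). AT2G41090, for a calmodulin-like protein, read 13.95, 13.74 and 13.85 in des1-1 and 13.73, 13.79 and 13.82 in the wild type (difference 0.07, 95% interval -0.12 to 0.25).

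Among the 7 little studied genes, AT1G09310, of the DUF538 family, read 13.30, 13.15 and 12.93 in des1-1 and 13.30, 13.42 and 13.28 in the wild type. As with AT1G54410 the lowest array was des1-1 3, and the difference was -0.21 ± 0.10 (SE; adjusted p = 0.386). Without des1-1 3 the difference was -0.11 in AT1G09310 and -0.10 in AT1G54410. The other 6 had intervals within 0.25 of 0. CCL, whose transcript is unstable and under control of the circadian clock, read 13.49, 13.39 and 13.48 in des1-1 and 13.52, 13.51 and 13.36 in the wild type, a difference of -0.01 (-0.19 to 0.17). AT2G25510 differed by -0.01, AT1G23130 by -0.05, AT3G22240 and AT5G38980 by 0.04 each and AT1G13930 by 0.07.

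Over the 39 genes 8 separated the genotypes (20.5%), 2 higher and 6 lower, beside 18.5% of all probe sets. The 6 lower ones were AT1G11860, HPR, PRK, SBPASE, AT1G74470 and AT3G47070, of which 4 act in the plastid. The share that separated varied with brightness. Among other eligible probe sets it was 45.2% for wild-type means from 12 up to the limit, 30.1% from 11 to under 12 and 11.3% below 6. Of the 19 plastid genes 13 had a difference below 0 and 6 above 0, with a median of -0.06, and of the 20 others 10 lay below and 10 above 0, with a median of 0.015. These signs depend in part on the scaling, since with quantile normalization PSB27, PSAN, AT1G23130, AT2G25510, CCL and PRXR1 lay above 0 and PSAE-1 below 0.

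The 39 genes varied less between arrays of 1 genotype than probe sets in general. The median SD was 0.07 over the 3 des1-1 arrays, which the choice of genes did not use, and 0.06 over the 3 wild-type arrays. Over all probe sets the medians were 0.11 in des1-1 and 0.09 in the wild type. The SD lay under those medians for 30 of the 39 genes in des1-1 and for 32 in the wild type. In des1-1 the narrowest SDs were those of AT4G16190, AT3G22240 and PRXR1, at 0.021, 0.023 and 0.025, and the widest those of AT1G54410, AT1G09310 and PSBW, at 0.202, 0.186 and 0.184.

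From a wild-type mean of 6 upward, a smaller spread came with brightness. In the 31 other eligible probe sets with a wild-type mean from 12 up to the limit the median des1-1 SD was 0.084. It was 0.091 in the 163 from 11 to under 12, 0.098 in the 371 from 10 to under 11, 0.124 in the 1876 from 8 to under 10 and 0.151 in the 3160 from 6 to under 8. Below 6 this order did not hold, and the median was 0.092 in 7726 probe sets.

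**Figure D3:**
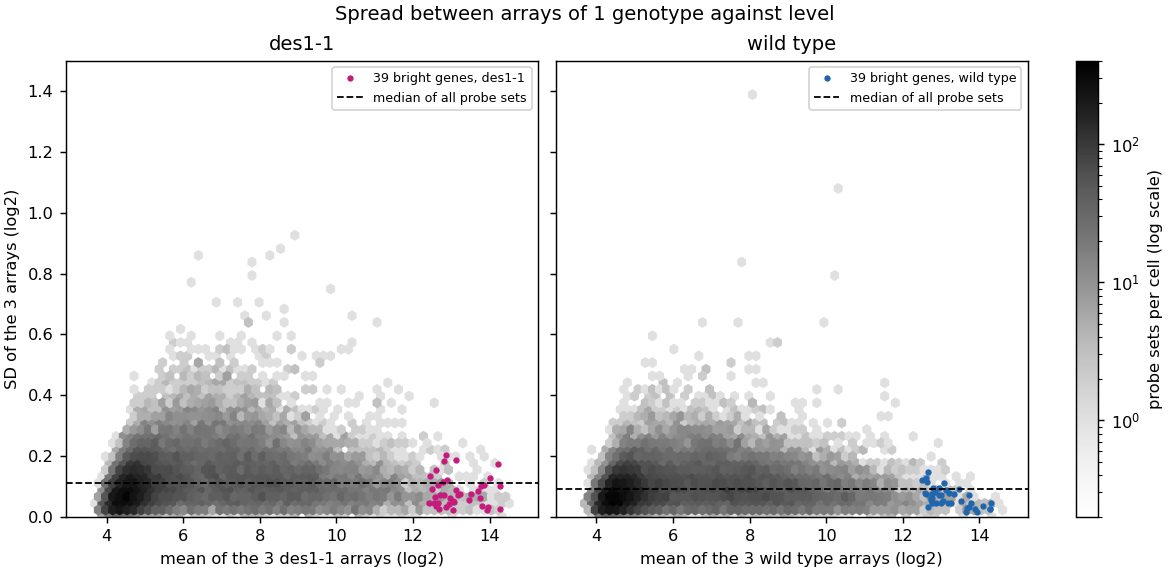
SD over the 3 arrays of a genotype against their mean, both on the log2 scale, for all tested probe sets (grey, darker for more) and for the 39 genes (coloured points), des1-1 on the left and wild type on the right; the dashed line is the median SD of all probe sets. Most of the 39 lie below the line at the bright end, with des1-1 SDs from 0.021 to 0.202 and wild-type SDs from 0.015 to 0.147.

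A p above the threshold does not show that a gene is equal in both genotypes, so the intervals were counted. The 95% interval of the difference lay within 0.5 of 0, which is a ratio of about 0.707 to 1.41, for 38 of the 39 genes (97.4%) and for 84.8% of all probe sets. It lay within 0.25 of 0 for 21 (53.8%) and for 29.2% of all. The shares within 0.5 were 93.5%, 92%, 88.4%, 77.1% and 69.1% in the 5 bands of eligible probe sets from the one just under the limit down to 6 to under 8, and 94.7% below 6. RMA gives all arrays a common distribution and the scanner has an upper end, and the part of either in the narrow range of the brightest probe sets was not tested.

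The arrays did not deviate alike for these genes. The array des1-1 2 was the lowest of the des1-1 arrays in 23 of the 39 genes, against 29.5% of all probe sets. The highest was des1-1 1 in 20 of the 39, against 27.3% of all probe sets. In the wild type, wild type 3 was the lowest in 21 of the 39, against 27.5% of all probe sets. The median deviation of the 39 genes from their genotype mean was 0.04, -0.04 and 0.02 on the 3 des1-1 arrays and 0.01, 0.02 and -0.03 on the 3 wild-type arrays. The median difference of the 39 genes was -0.02 and their median absolute difference 0.07, and the part of these array deviations in the results was not tested. Without des1-1 2 the median difference of the 39 genes was 0.00, and without des1-1 1 it was -0.05.

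**Figure D4:**
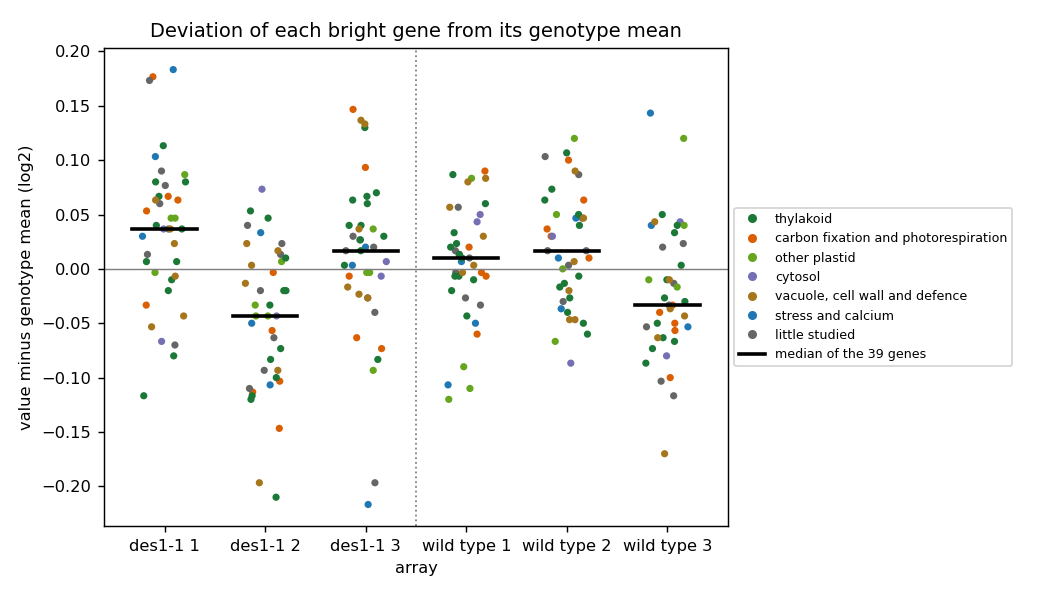
Value of each of the 39 genes minus the mean of its genotype (log2, vertical axis) on each array (horizontal axis), with a black bar at the median and colours by function. The bar lies lowest for des1-1 2 (-0.04) and wild type 3 (-0.03) and highest for des1-1 1 (0.04).

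Just inside the limit, ATHM2 had a wild-type mean at the limit itself, AT3G11630 had 12.59, and AT1G74470 and AT4G30650 were tied at 12.62. The 3 eligible genes just outside had wild-type means of 12.48 (DI19, a drought-induced zinc finger gene), 12.47 (AT4G15545) and 12.42 (AT1G67865). Taking the des1-1 arrays for the same limit gave 40 genes, of which 37 were shared. AT1G11860 and AT1G74470 left the set, and DI19, AT1G67865 and AT3G28940 entered it. The median difference was then -0.01 and 0 of the 40 passed the test.

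All 39 were measured by probe sets without the suffix that marks probes shared between genes, and each by 1 named probe set, so no second probe set could be compared. The median gene span in the TAIR10.1 reference table was 1528 bp, from 560 bp (AT1G51400) to 4121 bp (THIC), against 2108 bp over 13163 eligible genes.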

How the data were processed

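Leaf RNA was hybridised to Affymetrix ATH1 arrays. The authors deposited log2 values from RMA, made with affy according to the submitters' processing notes, which name no version. RMA subtracts background, gives arrays a common distribution and summarises probes. Values have 2 decimals and lie between 3.63 and 14.63. An array has no read depth, so the number of arrays sets the precision. Of 22810 probe sets 64 are controls and were not tested. The annotation gives 1 gene to 13513 of the others, several to 503 and none to 8730, and 13436 of the 13513 matched the TAIR10.1 reference table, used for names and gene span. No named probe set stands for DES1, which leaves the labels unchecked by its level.

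The limit was a wild-type mean of 12.5 on the log2 scale. The 2 genotypes were set against each other in limma 3.58.1 (R 4.3.3; lmFit, then eBayes), with no term but genotype, two-sided tests, and Benjamini-Hochberg adjustment over 22746 probe sets at 0.05. Every SE, interval and p comes from this fit unless an alternative is named, and the script was tested on simulated data. The genes, the lists, the bounds of 0.5 and 0.25 and the alternatives were chosen with earlier results of these data known. Named were genes past the test, the smallest p in each direction, members of the lists, genes next to the limit and the widest and narrowest SDs; the rest were added to account for all 39. Functional groups were assigned from general knowledge after the genes were known. Lists had few measured genes because most loci carry no named probe set here, and the list of ribosomal proteins could not be filled by name. Python 3.11.15, pandas 2.3.3 and matplotlib 3.10.9 made tables and plots. The labels call the samples biological replicates, without saying how many plants each held.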

Additional observations from a re-analysis of the deposited data

How the results depend on the processing

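Under 12 alternatives of the fit, none of the 39 genes passed the test in any, and 0 passed with the limit at 12 or 13, or with genes chosen on des1-1 arrays, on all arrays or without single wild-type arrays. The lowest adjusted p in limma was 0.0582 (HPR without des1-1 1), within a range of 0.0582 to 0.47 for that gene, and for AT1G11860 the range was 0.0637 to 0.411. Calls over all probe sets, 88 here, were 151 with an intensity trend, 183 with the replicate block and 20 to 765 with single arrays left out (765 when des1-1 1 was dropped, 39 for des1-1 2, 46 for des1-1 3, 28 for wild type 1, 22 for wild type 2 and 20 for wild type 3). Arrays that share a number had correlated deviations of 0.17, -0.23 and 0.21, so the numbers were not taken as pairs. The median difference of the 39 genes, -0.02 here, was 0.0106 with quantile normalization and ran from -0.0500 to 0.0017 with single arrays left out. The sign turned in 13 genes, none of which passed the test in limma. With quantile normalization the difference was 0.0106 in PSB27, 0.0172 in AT1G23130, 0.0233 in PSAN, 0.0111 in AT2G25510, 0.0200 in CCL, -0.0011 in PSAE-1 and 0.0075 in PRXR1. With median centring it was 0.0033 in AT2G25510 and in CCL and 0.0100 in PRXR1, and with array weights -0.0030 in AT4G30650, 0.0245 in CCL and 0.0036 in PRXR1. With single arrays left out, it ran from -0.1633 to 0.0017 in ECS1, -0.1133 to 0.0067 in RCA, -0.1133 to 0.0017 in PIFI, -0.1050 to 0.0050 in AT1G23130, -0.0200 to 0.1050 in AT4G30650, -0.0550 to 0.0200 in PSAN, -0.0267 to 0.0583 in AT4G01150, -0.0550 to 0.0450 in AT2G25510, -0.0617 to 0.0217 in CCL, -0.0067 to 0.0233 in PSAE-1, -0.0150 to 0.0117 in PRXR1 and -0.0117 to 0.0200 in AT1G51400. The other 26 genes kept their sign in every fit.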

Other observations

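Another 113 probe sets at or above the limit that chose the 39 genes carry no gene name in the annotation. None of the 113 passed the test (14 had an unadjusted p under 0.05 in limma), the median difference was -0.02, with a range of -0.47 to 0.21, and the median SD was 0.06 in des1-1 and 0.05 in the wild type. The genotypes did not overlap in 25 of them, 14 higher and 11 lower in des1-1. These are 12.4% with an unadjusted p under 0.05 and 22.1% without overlap, beside 15.6% and 18.5% of all probe sets. Among all 173 probe sets at this level, 1 passed the test, lower in des1-1, while 0.387% of all probe sets passed. None of the 39, the 113 or the 4 for several genes passed. The 1 that did is therefore among the 16 organelle probe sets and COR15A, which the rule left out.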
